A study of Mus musculus with 4 samples.

Results

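Ahnak, Plec and Son are 3 genes that carry long runs of N6-methyladenosine (m6A) sites in their coding sequence in macrophages, and the spacing and spread of those sites is described here in 2 mice. The members were chosen by gene name, from the genes with the most sites enriched in both animals, and grouped for very long coding exons. Their numbers of sites are therefore a description and no test is attached to them. In all, 8800 genes had a called site in at least 1 animal. Mouse 1 had 266 called sites in these genes out of 45668, and mouse 2 had 261 out of 47747. Together they made 287 of the 55333 distinct positions.

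The cells were macrophages grown from bone marrow of wild-type mice, and LPS, the bacterial lipopolysaccharide that activates macrophages, had been given to every culture for 3 h. The sources used here give no strain, sex or age of the animals, and the term NTC in the table names has no explanation in the labels. Each mouse gave 1 immunoprecipitated (IP) and 1 input library, 4 libraries in all, so no resting cells and no second library of an animal could be compared. In m6A-eCLIP an antibody against m6A is crosslinked to RNA fragments and sites are placed from the positions where reads start.

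The mark is deposited on adenosines of messenger RNA by a nuclear methyltransferase complex around METTL3 and METTL14, and reader proteins bind it and affect splicing, translation and decay of the transcript. It is known for lying in long internal exons and near stop codons. Splice junctions and the proteins deposited beside them are known to keep the mark away from nearby sequence, which leaves the inside of long exons open to it. Ahnak encodes a giant scaffold protein at the plasma membrane that is made largely of repeated units, and most of its coding sequence lies in a single exon. Plec encodes plectin, a plakin that links intermediate filaments to other parts of the cytoskeleton and to junctions, with long exons for its rod and for its C-terminal plectin repeats. Son encodes a large protein of nuclear speckles that takes part in splicing, and human SON carries tandem repeats of short peptides.

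The called position was an adenosine wherever the base could be read. RefSeq windows around gene starts (GRCm38.p6, the reference version of mm10) covered 4856 called 5' UTR sites of all genes, and the base at the end of the deposited interval, taken on the strand of the site, was A at 4856 of them. The base at the start of the interval was A at 410 (8.44%). Whether the site caller reports adenosines alone is not stated, so this shows which end is the site and is no check of the calls. Among the 3 genes only Son had called sites inside such a window. The stretch below is shown because it holds the first called sites of Son, at chr16:91647848-91647873 on the plus strand, with the called adenosines in capitals.

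Son 5' UTR: gaggcAtgctgggagcctggAggact

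The first capital is position 91647853, called in mouse 1 alone at a fold of 15.04. The second is position 91647868, 44 bases after the gene start in RefSeq, with folds of 12.5 in mouse 1 and 10.6 in mouse 2. The last letters hold GGACT, a common form of the m6A consensus, and its adenosine was not itself among the called positions. GGACT stood on either strand in 45.5% of the 32851 RefSeq windows of 300 bases, and in 2.88% within the last 26 bases on the gene's strand. The bases of the coding sites were not analysed here.

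Library depth is unknown, because the tables list a score and a fold for each site and no read numbers. The authors computed the fold from read starts, as IP over input of the same mouse, and the score is their own value without a stated definition, and neither can be given an error for a single site. Both animals' values are therefore printed, and shares of sites carry 95% Clopper-Pearson intervals, which are exact and speak of counting error alone. Macrophage markers had called sites in 7 of 7 genes, and 6 of the 7 had sites enriched in both mice, 40 in all with a median of 3. LPS response genes had called sites in 4 of 4, with 41 enriched in both and a median of 6.5. Of the 7827 genes with called sites in both mice, 6798 had a site enriched in both, and the median was 2. None of 4 lymphocyte and none of 3 stromal markers had a called site. All 4 neutrophil markers had called sites, 5 of them enriched in both mice, and their part in any result was not tested. In such mixed RNA, fewer cells of a type and less RNA per cell cannot be told apart.

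A site was called enriched where its fold was at least 8, a log2 fold of 3. Over all genes the enriched share was 81.7% in mouse 1 and 79.1% in mouse 2, and since the members were chosen by their enriched sites their shares are read only as a description beside these. Ahnak had 117 called sites in mouse 1, of which 103 (88.0%, 80.7% to 93.3%) were enriched, and 115 in mouse 2, of which 108 (93.9%, 87.9% to 97.5%) were. Plec had 90 called sites in mouse 1 with 81 enriched (90.0%, 81.9% to 95.3%), and 86 in mouse 2 with 80 enriched (93.0%, 85.4% to 97.4%). Son had 59 in mouse 1 with 54 enriched (91.5%, 81.3% to 97.2%), and 60 in mouse 2 with 51 enriched (85.0%, 73.4% to 92.9%). The intervals of the mice overlapped in each gene. The mice shared most positions and the sites of a gene are not independent, so this overlap is no test of a difference between animals.

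Most positions were found in both animals. Of the called Ahnak sites 88.9% in mouse 1 and 90.4% in mouse 2 were also called in the other animal, and the shares were 90.0% and 94.2% in Plec and 93.2% and 91.7% in Son, beside 83.4% and 79.8% over all genes. Of 128 positions in Ahnak, 104 were called in both mice and 93 were enriched in both. Plec had 95 positions, with 81 called in both and 73 enriched in both. Son had 64 positions, with 55 called in both and 46 enriched in both. Over all genes, 76.9% of the sites called in both mice were enriched in both, against 89.4% in Ahnak, 90.1% in Plec and 83.6% in Son. The members were chosen by their sites enriched in both mice, so the shares called or enriched in both are descriptions beside those of all genes. In each of the 3 genes, positions called in 1 animal alone had lower scores in the median. In Ahnak the 13 such positions of mouse 1 had a median score of 16.8 and the 11 of mouse 2 a median of 19.0. Ahnak positions called in both had medians of 47.6 and 47.4. The medians were 14.3 and 16.4 against 59.8 and 59.6 in Plec, and 17.3 and 14.7 against 35.9 and 34.2 in Son. A single Son position called in mouse 2 alone, 91659004, had a score of 38.8, above the median of 34.2 of the Son sites called in both.

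Most sites of the 3 genes lay in coding sequence. The genes were grouped for very long coding exons, so their coding shares are a description and no separate result. The share of sites enriched in both mice that was annotated as coding was 97.8% in Ahnak, 86.3% in Plec and 89.1% in Son, against 42.4% over all genes. It was 87.3% in Rnf213 and 90.5% in Helz2, other genes with many sites, and had a median of 60% over the 630 genes with at least 10 sites enriched in both mice. The 3' UTR held 2 such sites in Ahnak, 7 in Plec and 2 in Son. Both tables gave each position of these genes the same annotation. Exon boundaries were not used here, so whether a run of coding sites stays within 1 exon was not checked and distances are in genomic bases that can include introns. The main stretch of a gene was defined after its sites were seen, as the longest run of called sites with no gap above 3 kb. It held no site annotated as intronic in any of the 3 genes, but that of Plec held 2 sites annotated at 3' splice sites.

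**Figure D1:**
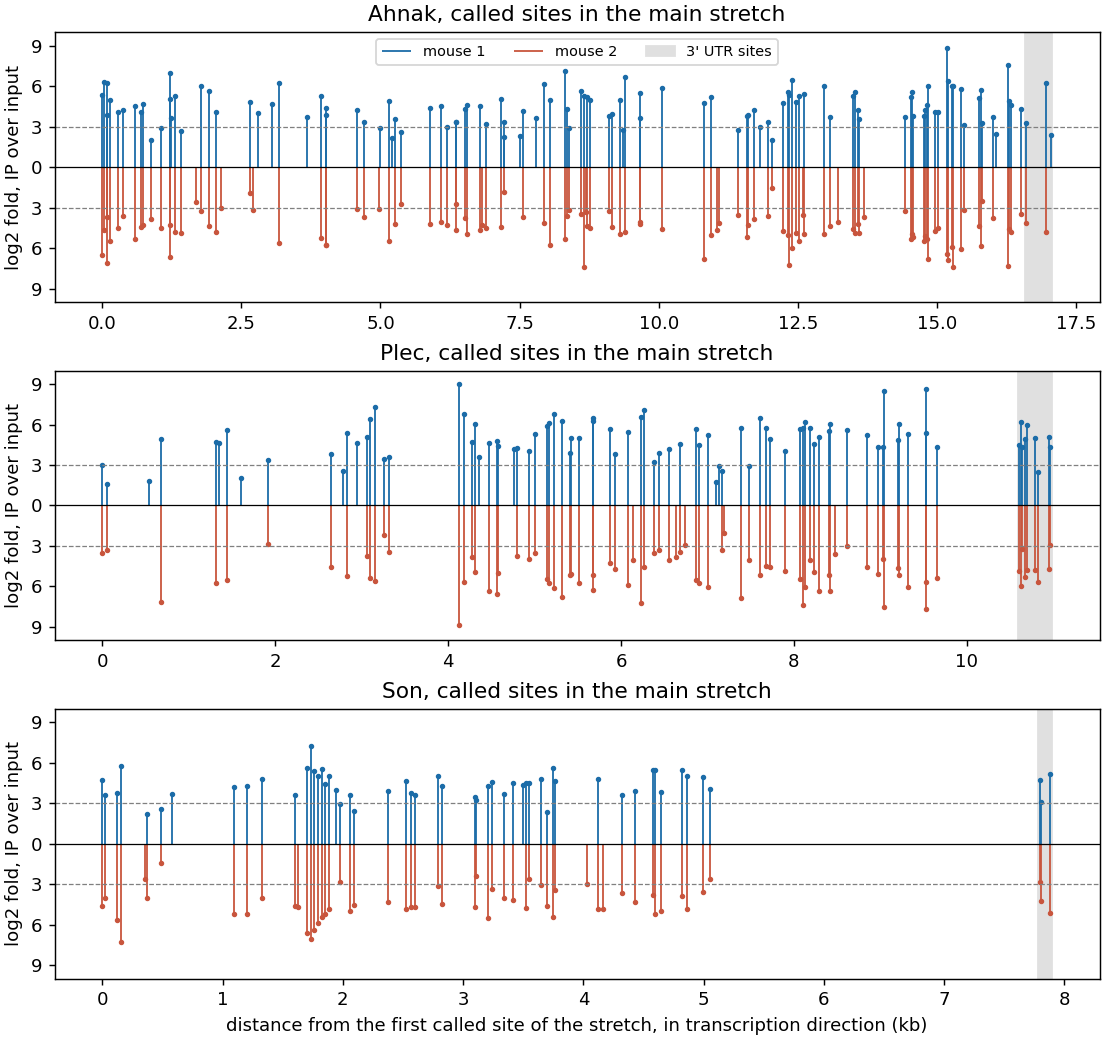
Log2 fold of IP over input (vertical axis) of each called site against its distance in kb from the first called site of the main stretch, in the direction of transcription, for Ahnak, Plec and Son; mouse 1 points up, mouse 2 points down, and the dashed lines mark the limit of log2 fold 3. Sites run along the whole stretch in both animals, the grey band spans the 3' UTR sites, and Son has a gap of 2743 bases before its 3' UTR sites.

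In Ahnak the sites formed 1 continuous stretch of 17050 bases on chromosome 19, from 9001781 to 9018831 on the plus strand, which is 19.5% of the gene's length in RefSeq. The first called site, at 9001781, had folds of 40.1 in mouse 1 and 92.4 in mouse 2. No site was called upstream of it, so the 5' UTR and the first part of the gene held none. The last called site, 9018831 in the 3' UTR, was called in mouse 1 alone with a fold of 5.29.

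Every one of the 17 full windows of 1 kb along Ahnak held at least 1 site enriched in both mice. The median was 5 per window and the range 1 to 10. Among these windows, laid end to end from the first called site, the third was the sparsest with 1 such site and the first the richest with 10. The counts of called sites per window ran from 3 to 11 in mouse 1 and from 2 to 11 in mouse 2, and across the windows Pearson's r was 0.89 and Spearman's rho 0.91, a description over windows of the same transcript. With the stretch cut in 5 equal parts, the number of sites enriched in both mice was 17, 14, 18, 19 and 25 from the 5' to the 3' end. The median score was lowest in the second part of mouse 1 (26.8) and in the first part of mouse 2 (34.9), and highest in the last part of both (54.1 and 53.5).

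The Ahnak sites with the highest mean log2 fold lay at both ends of the stretch, and those with the highest scores at its 3' end. At 9016955 the fold was 460.3 in mouse 1 and 86.5 in mouse 2. The folds at 9018064, the second in order of the mean log2 fold, were 191 and 159. At 9002996 they were 129 and 99.2. Of the 5 highest sites 3 thus fell in the last 2 kb before the 3' UTR sites and the others within the first 2 kb, since 9017067 had 64.8 and 166 and 9001871 had 77.2 and 136. Among the highest scores, chosen after the values were seen, were 9016989 (120.1 in mouse 1 and 123 in mouse 2), 9017051 (116 and 121) and 9016955 (114 and 116), while 9010433, in the middle of the stretch, had 94.0 and 96.6 and 9003004, near its 5' end, 88.4 and 81.5. With the 1 kb window free to start at any site enriched in both mice, the densest, from 9016308 to 9017265, held 15 such sites. The widest gap between such sites, 1131 bases, ran from 9003821 to 9004952. Around the limit, 9007982 was just inside with folds of 8.02 and 19.3 and 9002839 just outside with 7.69 and 22.1.

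Plec, on the minus strand of chromosome 15, had a main stretch of 10965 bases between 76171029 and 76181994, with 71 of its 73 sites enriched in both mice. The other two lay far upstream, at 76195698 in the 5' UTR (folds of 13.0 and 10.6) and at 76229500, annotated as a distal intron (26.1 and 29.8). The gap between them, 33802 bases, was the widest of the gene. The stretch opened with sites annotated at 3' splice sites, 76181994 (8.02 and 11.6) and 76181935 (3.01 and 9.63).

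Sites became denser along Plec. The first 4 windows of 1 kb held 2, 2, 2 and 4 sites enriched in both mice, and the next 6 held 10, 11, 9, 6, 10 and 8. By equal parts of the stretch the numbers were 4, 10, 23, 17 and 17. The strongest site of Plec, 76177870, opened the denser part: it followed a gap of 811 bases after the site before it, and had folds of 516 in mouse 1 and 454 in mouse 2. Next came 76172462 (404 and 202) and 76172952 (352 and 183), both near the end of the coding sites, and then 76175769 (92.8 and 153) and 76173890 (54.5 and 168). With the window free to start at any site, the densest 1 kb held 13 sites enriched in both mice, from 76177053 to 76176060 in the direction of transcription. Between the last coding site, 76172343, and the first 3' UTR site, 76171387, no site was called over 956 bases in either mouse, and then 9 called sites of the 3' UTR followed within 358 bases.

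Son, on the plus strand of chromosome 16, had 3 groups of sites. The first was a cluster of 5 called 5' UTR sites between 91647853 and 91647884, 3 of them enriched in both mice. The highest of these by mean log2 fold, 91647884, had folds of 39.1 and 10.9, and 91647874 had 20.06 and 20.2. The main stretch followed from 91654843 to 91662720, 7877 bases with 42 sites enriched in both mice. A last coding site stood alone at 91678266 (21.1 and 27.4), 15546 bases beyond the main stretch. The sites annotated as 3' UTR in the main stretch thus come before a coding site of the same gene. Which transcripts of Son the annotation used was not checked.

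Within the main stretch of Son the 5 windows of 1 kb from its start held 4, 11, 7, 9 and 9 sites enriched in both mice, and the next 2 held none. The last called coding site before that gap, 91659897, had folds of 17.05 and 6.26. The 3 sites of the 3' UTR stood at 91662640, 91662646 and 91662720, and the last of them had folds of 36.1 and 35.6. The highest folds of the gene were at 91656576 (149 and 131), 91654996 (54.2 and 157) and 91656546 (49.1 and 98.2), followed by 91656606 (41.1 and 82.8) and 91658587 (49.1 and 43.3). Just inside the limit was 91658494 (28.1 and 8.18), and just outside it 91656816 (7.52 and 7.22).

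Of those 5 highest sites of Son, 3 belonged to a series in which sites were 30 bases apart. From 91656546 to 91656936, a span of 390 bases, 11 positions were called in either mouse, all at whole steps of 30 bases, the length of 10 codons, from the first. The series was defined after its values were seen, as the longest run of neighbouring called positions whose distances were multiples of 30. Of the 14 steps, mouse 1 had called sites at 11 and mouse 2 at 10, and 8 were enriched in both mice. The steps with no called site in either mouse were those at 210, 300 and 330 bases from the first. The nearest called sites outside the series were 78 bases before it and 286 bases after it.

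The scores of that series were highest at its start in both animals. At the first step the score was 142 in mouse 1 and 160 in mouse 2. The second step, 91656576, had 189 and 213, the highest scores of the 3 genes. The next steps had 92.7 and 112, then 62.4 and 63.9, then 36.3 and 33.7. From the sixth step on no score exceeded 40.5 in mouse 1 or 48.4 in mouse 2. The other 45 coding positions of Son reached at most 89.7 and 87.7. Folds were higher in the series as well, with medians of 32.1 and 39.5 against 19.6 and 22.6 at the other coding positions. These differences carry no test, and the sources used here do not say how reads of neighbouring repeat units were assigned. A read that fits several units cannot be told apart from reads of each.

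**Figure D2:**
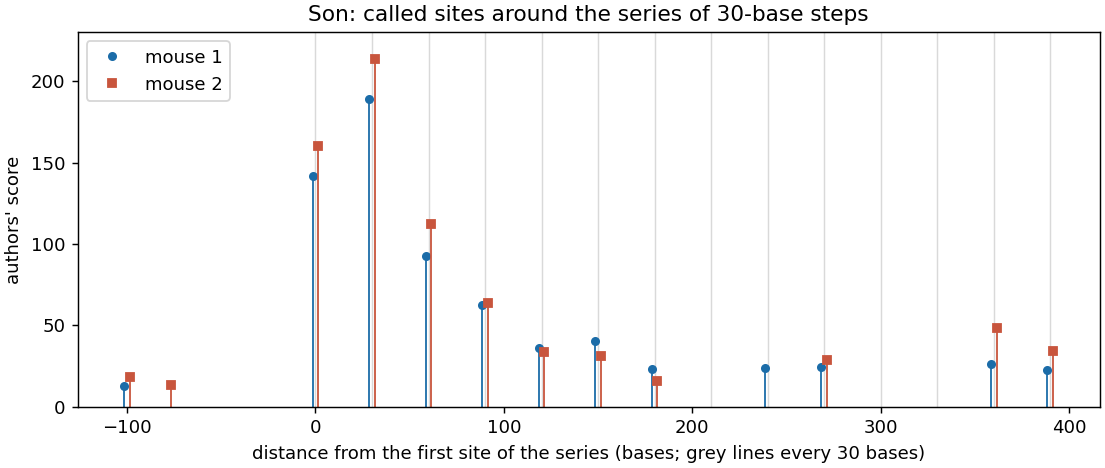
Authors' score (vertical axis) of each called Son site against its distance in bases from the first site of the series, with the mice drawn side by side and grey lines every 30 bases. All called sites between 0 and 390 bases stand on the lines, the highest scores (189 in mouse 1 and 213 in mouse 2) are at 30 bases, and 3 lines have no site.

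A gap that returned so often was not seen in another gene with enough sites. Among 1591 genes with at least 10 called positions, the commonest distance between neighbouring positions occurred a median of 1 time. It occurred 3 times or more in 63 of them. In Son the distance of 30 bases occurred 9 times, the highest count of the 1591, and 8 of the 9 lay in the series. The next were Ube2l3 with 6 distances of 1 base, and Acod1 and Helz2 with 5 distances of 1 and of 6 bases. Ahnak had 4 distances of 43 bases and Plec 3 of 40. Genes with more sites have more chances of a repeated distance, which was not adjusted for.

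Some longer distances recurred among the coding positions of Ahnak and Plec, and no gene outside the 3 is set beside them here. Between the 125 coding positions of Ahnak there were 2392 pairs up to 3000 bases apart, spread over 1603 different distances. Distances found 6 times or more numbered 7, and all 7 were multiples of 3. Of the 13 found 5 times or more, 12 were. Over all 2392 pairs, 45.4% were multiples of 3. The distance of 270 bases occurred 7 times, and so did 2502. Those of 108, 114, 384, 969 and 2886 bases occurred 6 times each. The mean was 0.797 pairs per distance up to 3000, taken over all distances and not over multiples of 3 alone. These 7 distances are the most frequent ones, picked after the counts were seen. Between the 82 coding positions of Plec, 909 bases occurred 6 times, with a mean of 0.683. Distances of 63, 183, 1329, 1335 and 1450 bases occurred 5 times each. These Plec distances were also picked after the counts were seen. Whether the counts in either gene exceed those of scattered sites was not tested. Of the 2048 Plec pairs up to 3000 bases apart, 44.1% were multiples of 3. The shares of multiples of 3 and the uneven remainders of position given below are not separate results.

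The repeated distances of Ahnak fit together in a few places. At 9009713, 9009827 and 9010097 the steps of 114 and 270 bases add up to 384, the length of 128 codons. Their folds were 71.2 and 17.7, 31.1 and 54.9, and 140.4 and 40.1 in mouse 1 and mouse 2. The sites 9009713 and 9009827 had counterparts exactly 2886 bases further on, 9012599 (27.1 and 111.7) and 9012713 (36.6 and 32.7). A chain of steps of 384 bases also ran over 9008567, 9008951 and 9009335, and 9008567 and 9008951 again had counterparts 2886 bases on, at 9011453 and 9011837. All 6 distances of 384 bases fell in the same phase, modulo 3, and 5 of them joined positions called in both animals. Ahnak is known to hold a repeated unit of this kind of length, but the sequence at these sites was not analysed here.

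Spacing within the main stretch was alike in the medians of the 3 genes. Neighbouring sites enriched in both mice were a median of 108.5 bases apart in Ahnak, 98 in Plec and 100 in Son. In Ahnak the middle range, from the lower to the upper quartile, was 47.2 to 255 bases. It was 43 to 167 in Plec and 30 to 149 in Son, where the lower quartile is the step of the series. Over the whole gene the medians were 108.5, 99 and 100. By mouse, enriched sites over the whole gene were a median of 111 bases apart in mouse 1 and 108 in mouse 2 for Ahnak, 96.5 and 89 for Plec, and 81 and 80 for Son. Son alone depended on the fold limit by more than 1.5 times: at a log2 fold of 4 its 46 shared sites became 24 and its median distance 223 bases.

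Gaps were uneven rather than regular. The ratio of their SD to their mean in the main stretch was 1.13 in Ahnak, 1.40 in Plec and 2.33 in Son, whose value includes the gap of 2812 bases before its 3' UTR sites. Sites enriched in both mice were at most 10 bases apart in 5 of 92 gaps in Ahnak and 5 of 70 in Plec, and in none of 41 in the main stretch of Son. Gaps above 1 kb between such sites were rare, with 1 in the main stretch of each gene. Per kb of main stretch the density was 5.48 sites in Ahnak, 6.48 in Plec and 5.33 in Son.

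**Figure D3:**
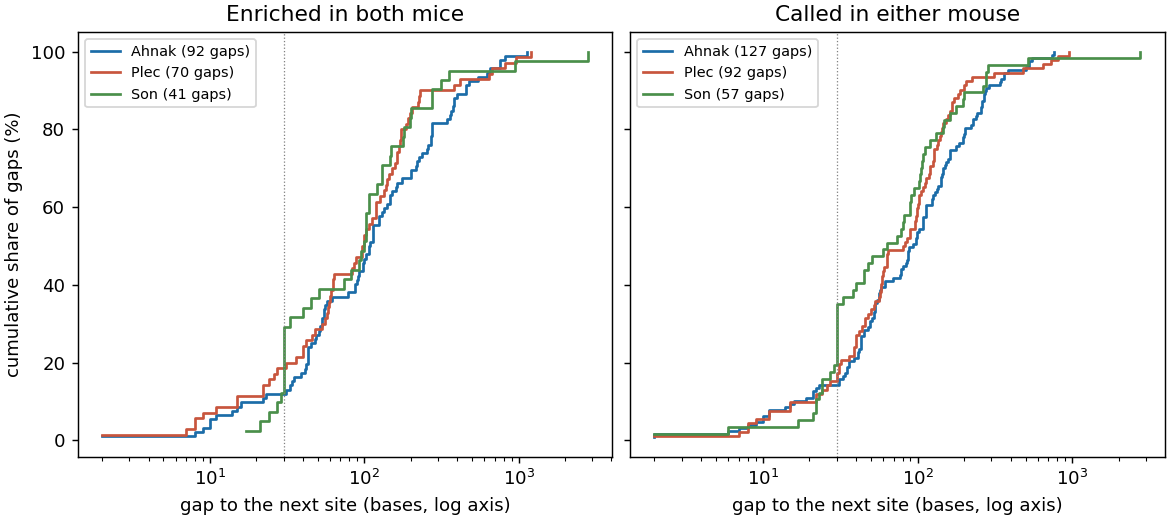
Cumulative share of gaps in percent (vertical axis) against the gap between neighbouring sites of the main stretch in bases on a log axis, for sites enriched in both mice (left) and called in either mouse (right). The curves cross the middle near 100 bases in the left panel (medians 108.5, 98 and 100), and the curve of Son jumps at the dotted line of 30 bases.

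Beside other genes the 3 had long stretches with fewer sites per kb than the median. Among the 630 genes with at least 10 sites enriched in both mice, the main stretch had a median length of 1368 bases and reached 10 kb in 3 genes, Ahnak, Plec and Helz2. Measured between sites enriched in both mice, Ahnak had the longest (16969 bases), Helz2 the second (13157), Plec the third (10954), and Son the fifth (7877). The median density of the 630 genes was 8.99 sites per kb, above that of each of the 3 genes, and their median distance was 79 bases. The members were chosen for their number of sites and grouped for very long coding exons, so these ranks are a description.

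Rnf213, a giant ubiquitin ligase, and Helz2, an interferon-induced helicase, each carried 63 sites enriched in both mice. By number of sites and median distance together, Rnf213 was the gene most like Ahnak and Plec, with a median distance of 90.5 bases, but 38 of its 63 sites were packed in a stretch of 2982 bases (12.7 per kb). Gm8995, a predicted gene with no coding site among its 66, came second for both (75 bases apart, over a stretch of 7188 bases), and Helz2 came next. Helz2 had a median distance of 74.5 bases and 4.79 sites per kb, spread over a stretch that was longer than that of Plec. The genes nearest to Son were Mpeg1 (37 sites, 93 bases apart), Notch2 (37 and 92.5) and Prag1 (35 and 96.5). The median over sites of the mean log2 fold of both mice was 4.75 in Ahnak, 5.31 in Plec and 4.51 in Son, and its median over the 630 genes was 4.84.

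The order of sites was more alike in the animals by score than by fold, and by score it was least alike in Son. Over the 104 Ahnak sites called in both mice, Pearson's r was 0.62 and Spearman's rho 0.59 for the log2 folds, and 0.94 and 0.91 for the scores. In Plec, over 81 sites, the values were 0.66 and 0.61 for the folds and 0.93 and 0.93 for the scores. In Son, over 55 sites, they were 0.45 and 0.35 for the folds and 0.94 and 0.72 for the scores. Over all 38082 sites called in both mice the rho was 0.70 for folds and 0.85 for scores. Sites of a gene share their libraries and transcript, so these correlations are descriptions.

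Neither animal had the higher folds throughout. In Ahnak 52 sites were higher in mouse 1 and 52 in mouse 2. In Plec 46 and 35 were, and in Son 27 and 28. The median absolute difference in log2 fold was 0.64 in Ahnak, 0.72 in Plec and 0.94 in Son, against 0.56 over all genes. Differences above 1 on the log2 scale were found at 29.8% of the Ahnak sites, 39.5% of the Plec sites and 43.6% of the Son sites, against 26.8% over all genes.

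Single sites differed widely between the animals. In the 3' UTR of Plec, 76171168 had folds of 5.68 and 52.0 in mouse 1 and mouse 2. The coding site 76173380 of Plec went the other way, with 48.1 and 7.94. The largest differences in Ahnak were at 9004433 (28.1 and 3.85) and at 9003203 (6.52 and 28.9). Those in Son were at 91658387 (23.1 and 6.10) and at 91658542 (5.01 and 25.04). After division by a constant of each table (1.003 and 0.963), 45.3% of the Ahnak folds of mouse 1 and 42.6% of those of mouse 2 were whole numbers within 1e-06. A fold takes this form where the input has 1 read start, but other read numbers can give it too, and none were given. The share of whole numbers was 66.7% and 60.5% in Plec, 66.1% and 71.7% in Son, and 62.1% and 62.0% over all genes. Among the 10 highest folds of each gene, 8 in mouse 1 and 8 in mouse 2 were whole numbers in Ahnak, 9 and 7 in Plec, and 10 and 10 in Son.

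**Figure D4:**
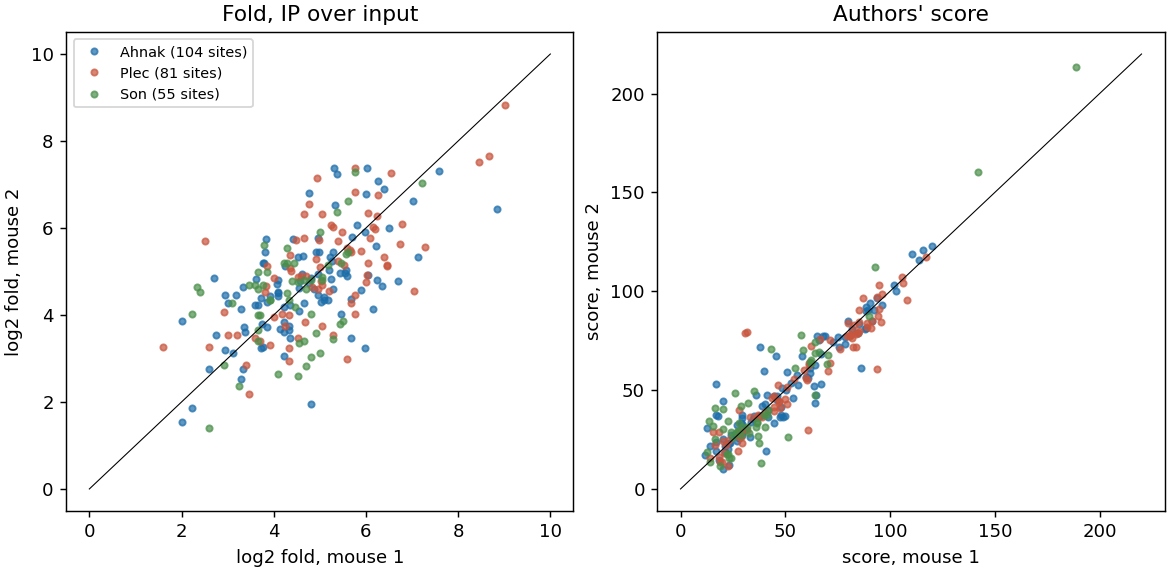
Left, log2 fold of IP over input in mouse 2 against mouse 1, and right, the authors' score in mouse 2 against mouse 1, for each site called in both mice (104 in Ahnak, 81 in Plec and 55 in Son); the line marks equal values. Scores lie closer to the line (Pearson r 0.94, 0.93 and 0.94) and folds scatter more widely (0.62, 0.66 and 0.45). Spearman's rho for the scores was 0.91, 0.93 and 0.72, and the 2 highest scores are Son sites of the 30-base series.

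Coding sites of Ahnak and Plec were unevenly spread over the 3 possible remainders of their genomic position divided by 3. In Ahnak, 61 of the 114 coding sites of mouse 1 had a remainder of 2 (53.5%, 43.9% to 62.9%), 40 a remainder of 0 (35.1%, 26.4% to 44.6%) and 13 a remainder of 1 (11.4%, 6.21% to 18.7%). Mouse 2 had 61, 39 and 13 of 113. In Plec, 42 of 77 coding sites of mouse 1 and 42 of 73 of mouse 2 shared 1 remainder (54.5%, 42.8% to 65.9%, and 57.5%, 45.4% to 69.0%). The animals share most positions and are no independent check of this. Within 1 exon a remainder corresponds to a codon position, but the reading frame was not used here, and an intron between sites would shift it.

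In Son the remainders were more even, and the commonest changed with the series. With all coding sites, 22 of 52 in mouse 1 and 23 of 53 in mouse 2 had a remainder of 0 (42.3%, 28.7% to 56.8%, and 43.4%, 29.8% to 57.7%). Without the series, in a count added after seeing the data, 11 of 41 and 13 of 43 had it, and the remainder of 1 was the commonest with 16 in each mouse. Among the 9 genes with at least 40 coding positions, the commonest remainder held a median of 46.5% of them. Plec had the highest share (57.3%), then Ahnak (53.6%) and Helz2 (52.8%), and the lowest was that of Mki67 (34.9%). Those 9 genes are not a random set and no test was made.

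**Figure D5:**
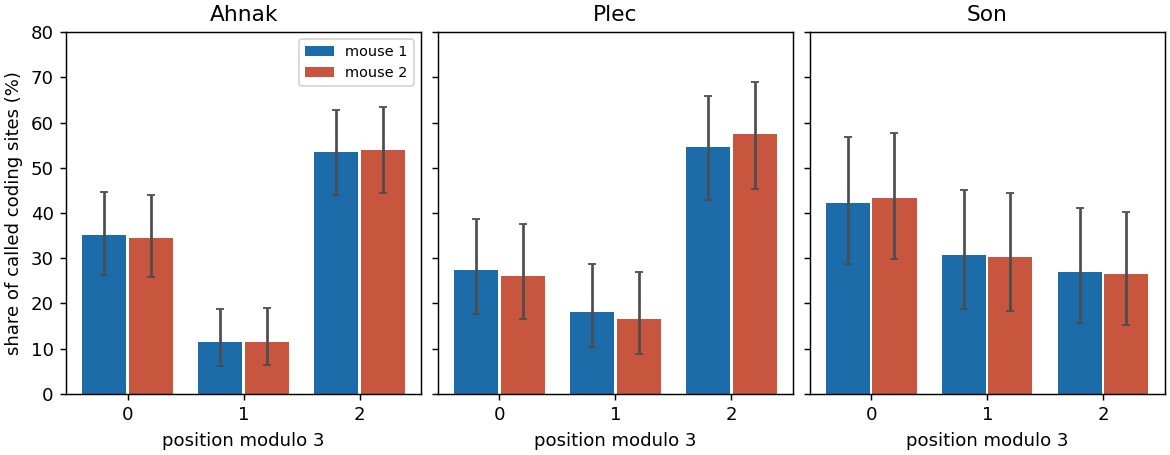
Share of called coding sites in percent (vertical axis, from 0) by the remainder of the genomic position divided by 3, for Ahnak, Plec and Son in each mouse; bars are shares and lines are exact 95% intervals. The remainder of 1 is the rarest in Ahnak (11.4% and 11.5%) and the remainder of 2 the commonest in Ahnak and Plec.

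Lists of genes with a related protein or place in the cell had a median of 2 sites enriched in both mice. Of 13 genes for giant, plakin and other scaffold proteins or their partners, 9 had called sites and all 9 had at least 1 site enriched in both mice, with a median of 2 over the 13. Of the 7827 genes that had called sites in both mice, 6798 had a site enriched in both and the median was 2. Those genes leave out any with no called site, which the 13 include, so the 2 medians are not on the same basis. Macf1, a plakin that links actin and microtubules, had 15, all coding and a median of 90.5 bases apart. Flna, an actin crosslinker, had 7. Ahnak2, a large relative of Ahnak, had 6 coding sites, a median of 1136 bases apart, with folds of at most 17.05 and 14.4. The annexin gene Anxa2, whose protein binds Ahnak together with S100a10, had no called site, and S100a10 had 2 sites enriched in both mice.

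Of 8 genes for nuclear speckle and SR proteins, the neighbours of Son, all had called sites and 7 had a site enriched in both mice, with a median of 2. Srrm2, another large speckle protein, had the most with 13, all coding and a median of 79 bases apart, with folds of up to 117 and 127. Acin1 had 5 and Thrap3 4. Pnn had 1 called site in each mouse and none enriched in both.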

How the data were processed

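Called sites of m6A-eCLIP were taken from 1 table per mouse. Per the submitters' processing notes, cutadapt 2.7, STAR 2.6.0c and UMI-tools 0.5.1 were used and the builds mm10 and hg38 are named; the sources used here do not name the site caller, the annotation or the definition of the score. The score is the authors' deposited value per site, and every listed site scored above 10. The fold is the authors' deposited ratio of read starts in IP over input, per the file headers. Depth is unknown, so no model of read counts was run.

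The members and lists were chosen with earlier results of these data known. Rows were taken where the gene column equalled Ahnak, Plec or Son, and all 128, 95 and 64 positions lay inside the gene in RefSeq (GRCm38.p6). The end of each interval is the printed 1-based position. Shared sites have the same nucleotide and strand. Sites were named by a fixed rule: the 5 highest by mean log2 fold, the ends of the run, of the widest gap and of the densest 1 kb, the largest differences between mice, and those nearest the fold limit of 8. Others, such as those of the repeated distances, were chosen after their values were seen. The steps were tested on simulated data. Python 3.11.15, pandas 2.3.3, NumPy 2.4.6, SciPy 1.17.1 and Matplotlib 3.10.9 were used.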

Additional observations from a re-analysis of the deposited data

How the results depend on the processing

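No paired analysis was possible because no result comes from a test in which a pairing could be put in or left out. Each deposited fold is itself IP over input within 1 animal. The number of sites enriched in both mice moved by less than 1.5 times under all 8 alternatives in Ahnak (63 to 108) and Plec (57 to 81). In Son it fell to 24 at a log2 fold of 4 and stayed between 40 and 54 under the other 7. The median distance between such sites in Ahnak became 119 bases at a log2 fold of 4 and 114 with a score of at least 20, and with either mouse left out it was 108 to 111. In Plec it was 89 to 96.5 with either mouse left out. In Son it was 82 at a log2 fold of 2, 223 at a log2 fold of 4, 108 with a score of at least 20, 97.5 with sites shared within 5 bases, and 80 to 81 with either mouse left out. The cause was not tested, except that a higher limit leaves fewer sites. In an alternative added after seeing the data, the 30-base series of Son had 7 to 10 enriched sites, against 8. Each animal gave 1 IP library, read numbers were not given, and exon boundaries and coding sequence were not used, so folds have no error and spacing is in genomic bases.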

Other observations

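Other genes with short repeated distances were seen in the ranking of neighbouring distances, and were named after their values were seen. Asxl1 had 4 distances of 10 bases among 34 called positions, Vcpip1 4 of 33 bases among 42, and Mki67, a proliferation marker whose protein holds repeated units, 4 of 37 bases among 65. Gpr85 had 4 of 5 bases among 16 positions.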
